A study of Mus musculus with 15 samples.

Results

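The epidermal growth factor (EGF) family was followed through stretch of cultured mouse heart muscle cells. The genes are the ligands Hbegf, Ereg, Areg, Tgfa and Nrg1, the receptors Egfr, Erbb2 and Erbb4, and Errfi1, an inhibitor of these receptors. They were chosen by name, with earlier results of these data known, and their rows were taken from the deposited table by gene symbol. Of the 9 genes named, 8 were measured and tested, among 13657 genes in the table and 12114 tested. Areg was not analysed here.

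Poly(A) RNA was sequenced from neonatal cardiac myocytes of C57BL/6 mice, attached to a membrane of the silicone PDMS. Each of 5 groups held 3 libraries, A, B and C, each from its own stretch device, and the series calls the devices biological replicates. The groups were longitudinal stretch for 4 h, transverse stretch for 4 h, longitudinal stretch for 30 min, transverse stretch for 30 min, and a non-stretched control on the same kind of membrane. Stretch was static and biaxial, 14% along the primary axis, which named the group, and 3.6% along the orthogonal axis. No gene was altered and no drug is named in any group. The labels do not say whether the devices came from separate cell isolations, so p-values measure the spread between devices.

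EGF family ligands are made as membrane-anchored precursors, and proteases of the ADAM family release many of them to act on nearby cells. The ligands bind ERBB receptors, which pair, phosphorylate each other and signal through Ras and the kinases MEK and ERK, among other routes. Erbb2 has no known ligand of its own and acts as a partner of the other receptors. Neuregulin 1 with Erbb2 and Erbb4 is required for formation of the trabeculae of the embryonic heart. Heparin-binding EGF (Hbegf) is known as a ligand of Egfr and Erbb4 in cardiac myocytes. Errfi1 (Mig6) is an induced feedback inhibitor that binds the kinase domain of ERBB receptors.

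Values are FPKM, the fragments of a gene corrected for transcript length and for the number of mapped fragments, which allows levels of different genes to be set side by side. Absolute depth is unknown, and relative depth ran between 0.671 and 1 of the deepest library. All 9 myocyte markers analysed were present in every library, with a summed level of 15225 to 21256 FPKM; Tnnt2 and Actc1 were not analysed here. Markers of other cells were also present and none was at 0 in a library. The fibroblast markers summed to 2050 to 2742 FPKM over the libraries, the smooth muscle and pericyte markers to 426.9 to 1626, the macrophage and leukocyte markers to 306 to 471.5, the epicardial and mesothelial markers to 49.5 to 179.3, and the endothelial markers to 23.99 to 51.6 FPKM. In bulk RNA, fewer cells of a type and less RNA per cell cannot be told apart.

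Of the 8 genes, Ereg, Errfi1 and Hbegf moved and the other 5 did not pass the test in any comparison. Errfi1 and Ereg were higher than control after 30 min of stretch along either axis and after 4 h of longitudinal stretch. Hbegf was higher than control after 4 h of longitudinal stretch, by a call near the threshold. This Hbegf call and the Ereg call in transverse 30 min were each lost in some fits that left out 1 library. Errfi1 was lower at 4 h than at 30 min along each axis, by calls near the threshold. Tgfa, Nrg1 and the receptors Egfr, Erbb2 and Erbb4 stayed within 0.28 of control on the log2(FPKM + 1) scale in every stretch group. That scale shrinks the changes of scarce genes. As ratios of mean FPKM to control, these genes ran between 0.819 for Erbb4 and 1.42 for Nrg1, both in longitudinal 30 min.

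**Figure D1:**
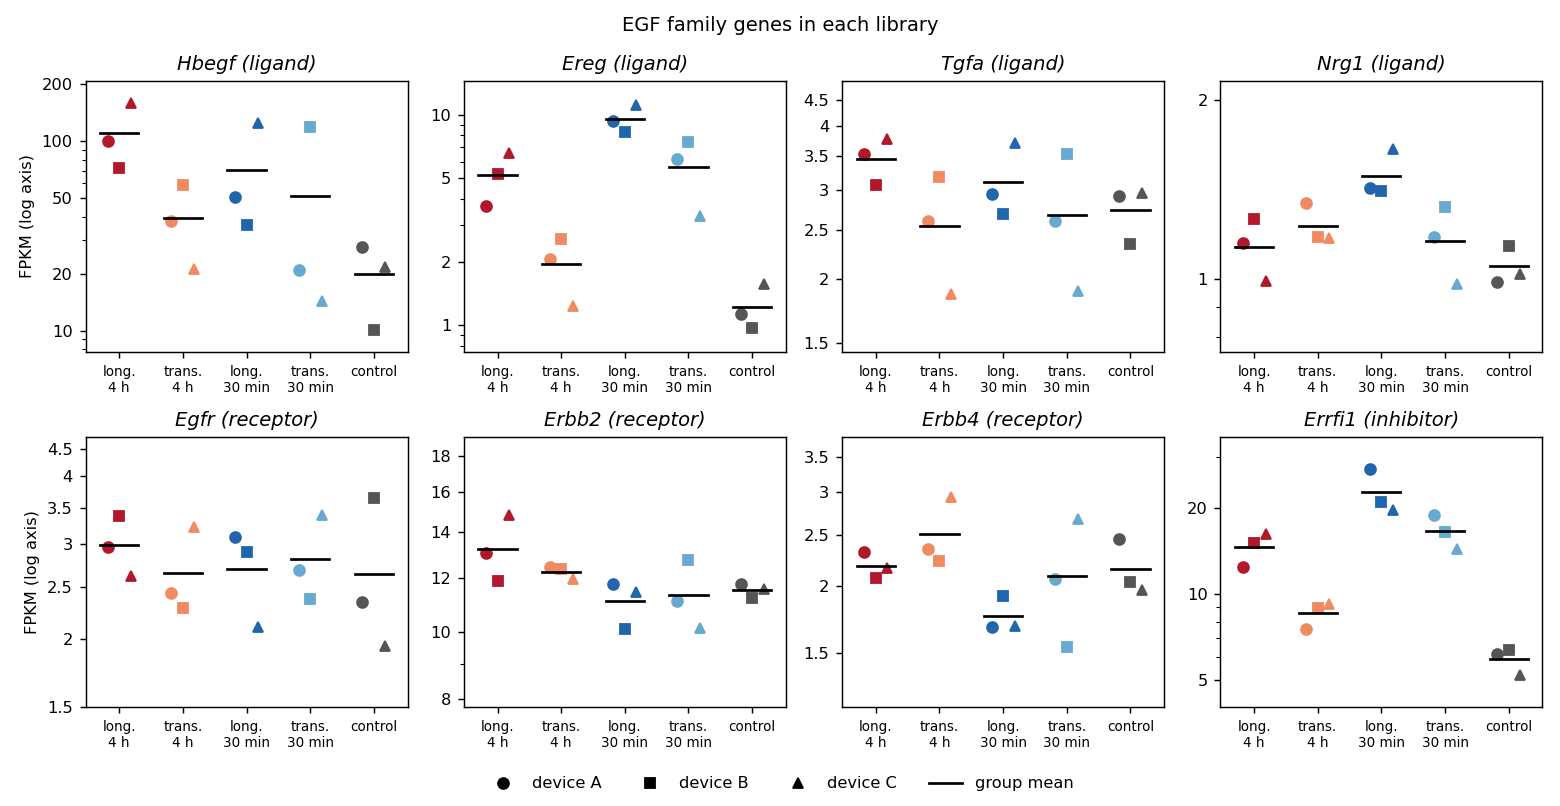
FPKM (log axis) of the 8 measured EGF family genes in each of the 15 libraries, by group. Symbols mark devices A, B and C, for which the labels state no matching across groups, and the line is the group mean. The 3 Errfi1 values of each stretch group lie above the 3 control values, and Hbegf spreads most widely, 14.4 to 119.6 FPKM in transverse 30 min alone.

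Tests were made with limma on log2(FPKM + 1), all 15 libraries in 1 fit, and the threshold was an adjusted p of 0.05 (Benjamini-Hochberg, 12114 genes tested). Because the added 1 shrinks the fold change of scarce transcripts such as Ereg, the ratio of mean FPKM is also given. The comparisons of the 4 stretch groups with control share the same 3 control libraries.

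Hbegf, on chromosome 18 at 36664581 to 36675459 (mm9, as for the positions that follow), had the highest mean of the 4 ligands in every group. It had 100.2, 72.4 and 160.2 FPKM in longitudinal 4 h, 38.2, 58.9 and 21.2 FPKM in transverse 4 h, 50.6, 36.1 and 125 FPKM in longitudinal 30 min, 21.0, 119.6 and 14.4 FPKM in transverse 30 min, and 27.7, 10.1 and 21.8 FPKM in control. All 3 values of each longitudinal group lay above the control values, whereas both transverse groups overlapped them. The means were 110.9 ± 44.9 FPKM in longitudinal 4 h and 19.9 ± 9.0 FPKM in control (SD, n = 3 each), a ratio of 5.58. The log2 fold change was 2.46 ± 0.75 (SE), with a limma adjusted p of 0.0399. The call was lost when any of 6 libraries was left out: control B gave an adjusted p of 0.139, control C 0.0836, longitudinal 4 h A 0.0821, longitudinal 4 h C 0.130, longitudinal 30 min A 0.0511 and transverse 4 h A 0.0539. Its fold change over all 15 such fits was 2.05 to 2.74.

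Hbegf did not pass the test in the other 3 stretch groups. Longitudinal 30 min averaged 70.6 ± 47.7 FPKM against 19.9 ± 9.0 FPKM in control, a log2 fold change of 1.69 ± 0.75 (limma adjusted p = 0.553). Transverse 4 h averaged 39.4 ± 18.9 FPKM, a log2 fold change over control of 0.95 ± 0.75 (limma adjusted p = 0.698), and 0.54 without control B and 0.61 without transverse 4 h B. Transverse 30 min averaged 51.7 ± 58.9 FPKM, a log2 fold change over control of 0.83 ± 0.75 (limma adjusted p = 1.0). That last value rested on 1 library, and without transverse 30 min B it was -0.07. The group order by mean was longitudinal 4 h, longitudinal 30 min, transverse 30 min, transverse 4 h and control, and each neighbouring pair overlapped.

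Summed markers of other cells are given beside Hbegf, and no test of the sums was made. All 8 smooth muscle and pericyte markers were detected, and their summed level was 935 to 1588 FPKM in longitudinal 4 h, 485.1 to 839.7 FPKM in transverse 4 h, 807.3 to 1626 FPKM in longitudinal 30 min, 426.9 to 1310 FPKM in transverse 30 min and 500.8 to 827.7 FPKM in control. The longitudinal 4 h sums lay above the control sums without overlap, as did the values of 20.9% of all tested genes. The sum was carried by Acta2, Tagln and Cnn1 (medians 431, 241 and 85.8 FPKM), and the others ranged in median from 0.946 FPKM for Myh11 to 35.1 FPKM for Pdgfrb. In longitudinal 4 h limma called 0 of the 8 markers, against 20.7% of all tested genes called either way. An unadjusted p under 0.05 was found for 2 (Tagln and Cspg4), against 37.4% of all tested genes. The log2 fold changes over control ran between -0.20 for Rgs5 and 0.96 for Cspg4 (median 0.38).

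All 8 epicardial and mesothelial markers were detected too. Their summed level was 70.8 to 179.3 FPKM in longitudinal 4 h, 49.5 to 93.2 FPKM in transverse 4 h, 61.5 to 118.1 FPKM in longitudinal 30 min, 57.7 to 166.5 FPKM in transverse 30 min and 51.6 to 93.5 FPKM in control, and every stretch group overlapped control. Krt18 carried this sum (median 56.55 FPKM), and the others ranged in median from 1.07 FPKM for Wt1 to 5.63 FPKM for Aldh1a2. Limma called 0 of these 8 markers in longitudinal 4 h, against 20.7% of all tested genes called either way. An unadjusted p under 0.05 was found for 0, against 37.4% of all tested genes. Their log2 fold changes ran between -0.15 for Upk3b and 0.98 for Krt18. Of 8 endothelial markers tested, limma called 1 higher and 1 lower in longitudinal 4 h, against 20.7% of all tested genes called either way. The part of these cell types in the Hbegf result was not tested.

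Ereg (chromosome 5, 91503643 to 91522675) encodes epiregulin, a ligand of Egfr and Erbb4, and was among the least abundant genes of the family without stretch. It had 3.67, 5.23 and 6.60 FPKM in longitudinal 4 h, 2.06, 2.58 and 1.23 FPKM in transverse 4 h, 9.33, 8.31 and 11.1 FPKM in longitudinal 30 min, 6.17, 7.42 and 3.31 FPKM in transverse 30 min, and 1.13, 0.972 and 1.57 FPKM in control. Every library of longitudinal 4 h, longitudinal 30 min and transverse 30 min lay above every control library, and transverse 4 h overlapped control. Mean Ereg in longitudinal 30 min was 9.59 ± 1.43 FPKM against 1.22 ± 0.311 FPKM in control, a ratio of 7.84 and a log2 fold change of 2.25 ± 0.25 (limma adjusted p = 0.000528). In transverse 30 min it was 5.63 ± 2.11 FPKM, 4.60 times control, a log2 fold change of 1.53 ± 0.25 (limma adjusted p = 0.0186).

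At 4 h the Ereg values were lower than at 30 min along both axes, without overlap of the groups, although neither difference passed the test. Longitudinal 4 h averaged 5.17 ± 1.46 FPKM, 4.22 times control, a log2 fold change of 1.45 ± 0.25 (limma adjusted p = 0.00580). Transverse 4 h averaged 1.95 ± 0.679 FPKM, a log2 fold change over control of 0.39 ± 0.25 (limma adjusted p = 0.618). The log2 fold change of 4 h over 30 min was -0.80 ± 0.25 for longitudinal stretch (limma adjusted p = 0.0829) and -1.14 ± 0.25 for transverse stretch (limma adjusted p = 0.134). Without transverse 30 min C both passed, at an adjusted p of 0.0447 for longitudinal stretch and 0.0218 for transverse stretch. The longitudinal calls against control held in all 15 fits that left out 1 library. The transverse 30 min call did not: the adjusted p was 0.101 without control A, 0.131 without control B, 0.123 without transverse 30 min A and 0.0923 without transverse 30 min B, and 0.229 when only those 2 groups were fitted.

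Tgfa (chromosome 6, 86145245 to 86225443) encodes transforming growth factor alpha, a ligand of Egfr. It averaged 3.46 ± 0.363 FPKM in longitudinal 4 h, 2.55 ± 0.655 FPKM in transverse 4 h, 3.11 ± 0.530 FPKM in longitudinal 30 min, 2.68 ± 0.820 FPKM in transverse 30 min and 2.74 ± 0.340 FPKM in control. Its 3 longitudinal 4 h values, 3.52, 3.06 and 3.78 FPKM, lay above the control values of 2.92, 2.35 and 2.96 FPKM, but the log2 fold change was 0.25 ± 0.17 (limma adjusted p = 0.281). No Tgfa difference passed the test.

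Nrg1 (chromosome 8, 32928500 to 33028675), a ligand of Erbb4 and of Erbb3, was near 1 FPKM throughout. Its values were 1.42, 1.41 and 1.66 FPKM in longitudinal 30 min and 0.991, 1.14 and 1.02 FPKM in control. The longitudinal 30 min libraries were also above every library of the other stretch groups, whose means were 1.14 ± 0.133 FPKM in longitudinal 4 h, 1.23 ± 0.0965 FPKM in transverse 4 h and 1.16 ± 0.172 FPKM in transverse 30 min. Longitudinal 30 min over control had a ratio of mean FPKM of 1.42. The log2 fold change was 0.28 ± 0.08, with a 95% confidence interval of 0.12 to 0.45, and it did not pass the test (limma adjusted p = 0.245).

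The 3 receptors differed little between groups. Their genes lie on chromosome 11 at 98273798 to 98300302 (Erbb2) and 16652206 to 16813910 (Egfr), and on chromosome 1 at 68086540 to 69154633 (Erbb4). Erbb2 was the most abundant receptor, at 13.2 ± 1.47 FPKM in longitudinal 4 h, 12.2 ± 0.250 FPKM in transverse 4 h, 11.1 ± 0.863 FPKM in longitudinal 30 min, 11.3 ± 1.31 FPKM in transverse 30 min and 11.5 ± 0.271 FPKM in control. All 3 libraries of each 4 h group lay above the control range of 11.2 to 11.8 FPKM. The log2 fold change over control was 0.18 ± 0.09 in longitudinal 4 h (limma adjusted p = 0.144) and 0.08 ± 0.09 in transverse 4 h (limma adjusted p = 0.792). The table gives Erbb2 the same span as 1810046J19Rik, and the libraries do not mark the strand, so its level is uncertain.

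Egfr, the receptor for Hbegf, Ereg and Tgfa, averaged 2.99 ± 0.379 FPKM in longitudinal 4 h, 2.65 ± 0.503 FPKM in transverse 4 h, 2.70 ± 0.521 FPKM in longitudinal 30 min, 2.82 ± 0.526 FPKM in transverse 30 min and 2.65 ± 0.887 FPKM in control. Every stretch group overlapped control, whose own libraries ran between 1.95 and 3.64 FPKM. Erbb4, a receptor for Nrg1 and Hbegf, had 1.68, 1.92 and 1.68 FPKM in longitudinal 30 min and 2.45, 2.04 and 1.97 FPKM in control. These groups did not overlap, and the log2 fold change of -0.19 ± 0.12 did not pass the test (limma adjusted p = 0.623). Erbb4 averaged 2.18 ± 0.124 FPKM in longitudinal 4 h, 2.51 ± 0.376 FPKM in transverse 4 h and 2.09 ± 0.566 FPKM in transverse 30 min.

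Errfi1 was higher than control in every library of every stretch group. Its gene lies on chromosome 4, at 150229200 to 150242989 of mm9. RefSeq promoter windows were matched by symbol for 5 of the 8 measured genes, Errfi1, Tgfa, Egfr, Erbb2 and Erbb4, and only Errfi1 among these changed with stretch. Its 2 annotated starts differ in composition, so the 250 bases before each are shown (RefSeq, GRCm38.p6, plus strand, 5′ to 3′). The window at start 1, chr4:150853546-150853795, is 38% G and C, and that at start 2, chr4:150854820-150855069, is 64.8%. Capitals mark matches to the searched motifs.
Errfi1 start 1: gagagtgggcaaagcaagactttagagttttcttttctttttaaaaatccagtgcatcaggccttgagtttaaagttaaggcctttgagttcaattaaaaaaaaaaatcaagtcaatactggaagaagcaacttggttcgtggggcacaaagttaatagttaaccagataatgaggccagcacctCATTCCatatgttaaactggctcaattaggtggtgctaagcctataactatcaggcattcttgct
Errfi1 start 2: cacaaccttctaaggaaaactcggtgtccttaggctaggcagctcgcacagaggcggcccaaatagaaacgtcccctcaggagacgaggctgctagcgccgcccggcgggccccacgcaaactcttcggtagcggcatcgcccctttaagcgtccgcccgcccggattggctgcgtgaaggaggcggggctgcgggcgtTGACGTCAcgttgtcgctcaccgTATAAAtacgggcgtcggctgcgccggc

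The search covered 6 motifs in these windows: TGACGTCA (a cAMP response element), TGANTCA (AP-1), CATTCC (TEAD), GCGTGGGCG (EGR), the CArG box by its name, all on both strands, and TATAAA on the gene's strand. Start 1 has CATTCC at bases 65 to 60 before the start, a match found in 12.6% of 32851 RefSeq windows of this length. Start 2 has TGACGTCA at bases 51 to 44 before the start, found in 1.55% of windows, and TATAAA at bases 28 to 23, found in 7.59%. The motifs do not overlap each other. TGANTCA (6.75% of windows), GCGTGGGCG (0.536%) and the CArG box (1.47%) are not in these windows. The Erbb2 window holds GGAATG, the reverse complement of CATTCC, at bases 88 to 83, and the Tgfa, Egfr and Erbb4 windows hold none of the 6. A match describes letters and is not a shown binding site, and the FPKM values do not tell the 2 starts apart.

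Errfi1 had 12.4, 15.1 and 16.2 FPKM in longitudinal 4 h, 7.54, 8.92 and 9.24 FPKM in transverse 4 h, 27.3, 21.0 and 19.6 FPKM in longitudinal 30 min, 18.8, 16.5 and 14.4 FPKM in transverse 30 min, and 6.15, 6.37 and 5.21 FPKM in control. All 3 values of every stretch group lay above all 3 control values. The group order was longitudinal 30 min, transverse 30 min, longitudinal 4 h, transverse 4 h and control, and of the neighbours in that order only transverse 30 min and longitudinal 4 h overlapped.

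Errfi1 averaged 22.6 ± 4.10 FPKM in longitudinal 30 min, 3.83 times the control mean of 5.91 ± 0.613 FPKM (SD, n = 3 each), a log2 fold change of 1.76 ± 0.14 (limma adjusted p = 1.21e-05). In transverse 30 min it averaged 16.6 ± 2.23 FPKM, 2.81 times control, a log2 fold change of 1.34 ± 0.14 (limma adjusted p = 0.000207). In longitudinal 4 h it averaged 14.6 ± 1.93 FPKM, 2.46 times control, a log2 fold change of 1.17 ± 0.14 (limma adjusted p = 0.00204). These 3 calls held in all 15 fits that left out 1 library. Transverse 4 h averaged 8.57 ± 0.900 FPKM, a log2 fold change over control of 0.47 ± 0.14 that did not pass the test (limma adjusted p = 0.318).

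**Figure D2:**
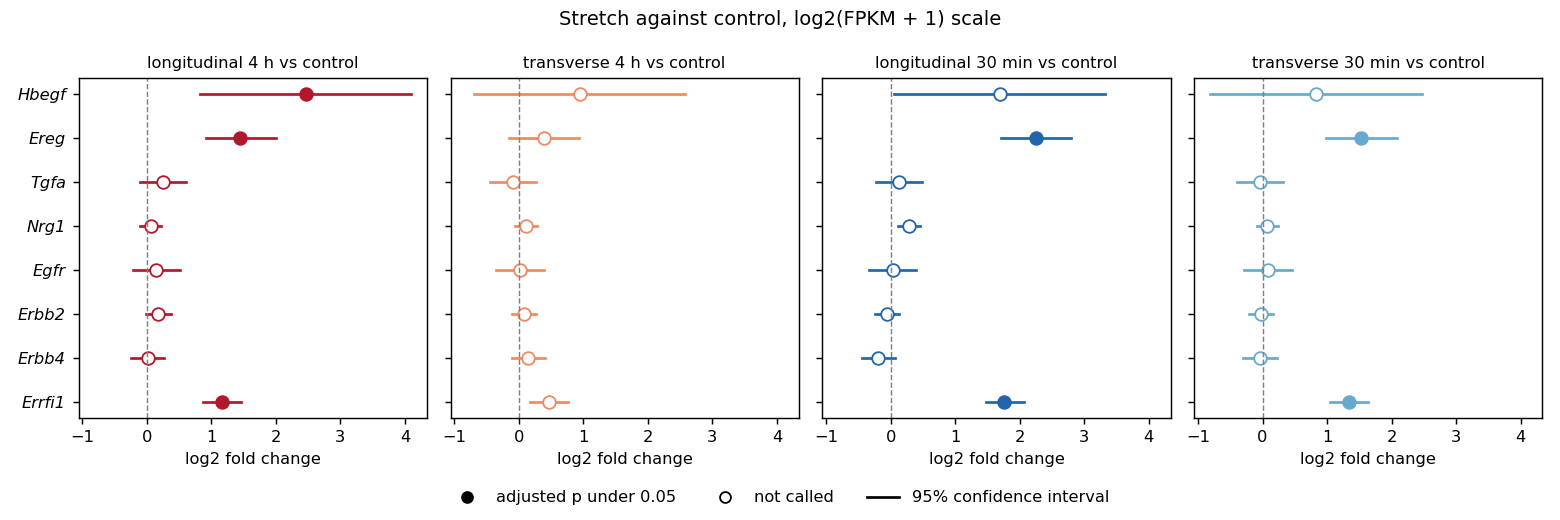
Log2 fold change of each stretch group against control for the 8 genes, on the log2(FPKM + 1) scale, with 95% confidence intervals. Filled points passed an adjusted p of 0.05: Hbegf, Ereg and Errfi1 in longitudinal 4 h, and Ereg and Errfi1 in longitudinal 30 min and in transverse 30 min.

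The counts of called genes are set beside the share of all genes tested. The members were chosen with earlier results of these data known, so these shares are no test of the family. In longitudinal 4 h, 3 of 8 EGF family genes were called higher, against 10.3% of all tested genes called higher. In longitudinal 30 min, 2 of 8 were called higher, against 0.388% of all tested genes. In transverse 30 min, 2 of 8 were called higher, against 0.289%. In transverse 4 h, limma called 0 of 8, against 0.0578% of all tested genes called either way, and 1 of 8, Errfi1, had an unadjusted p under 0.05, as did 10.6% of all tested genes.

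Without overlap above control lay 5 of 8 genes in longitudinal 4 h, against 20.9% of all tested genes, and 3 of 8 in transverse 4 h, against 10.9%. In longitudinal 30 min they were 4 of 8 above, against 10.6%, and 1 of 8 below, against 7.12%. In transverse 30 min they were 2 of 8 above, against 4.08%.

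The authors' deposited table holds its own comparison of each stretch group with control, by a test not given in the sources used here. The authors' deposited table gives Hbegf a log2 fold change of 2.48, 0.99, 1.83 and 1.38 for longitudinal 4 h, transverse 4 h, longitudinal 30 min and transverse 30 min, with q-values listed as 0, 3.11e-05, 0 and 0.00979. The limma fit gave 2.46, 0.95, 1.69 and 0.83 in the same order, so the sizes differ most in transverse 30 min, and the q-values of the authors' deposited table are under 0.05 in all 4 groups. For Ereg the authors' deposited table gives 2.08, 0.69, 2.97 and 2.22 in the same order, and q-values of 0, 0.763, 0 and 3.03e-12. For Errfi1 the authors' deposited table gives 1.3, 0.54, 1.94 and 1.5, and q-values of 3.81e-09, 0.458, 0 and 5.85e-08. At a q-value under 0.05 the authors' deposited table calls 3 of 8 genes in longitudinal 4 h (5.82% of all genes), 1 in transverse 4 h (0.256%), 3 in longitudinal 30 min (1.23%) and 3 in transverse 30 min (0.388%).

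Longitudinal and transverse stretch were also set against each other, since the study varied axis as well as duration. At 4 h all 3 longitudinal libraries exceeded all 3 transverse libraries for Hbegf, Ereg and Errfi1, 3 of 8 genes against 16.5% of all tested genes. Longitudinal over transverse, the log2 fold change was 1.51 ± 0.75 for Hbegf (limma adjusted p = 0.220), 1.06 ± 0.25 for Ereg (limma adjusted p = 0.102) and 0.70 ± 0.14 for Errfi1 (limma adjusted p = 0.0792). Limma called 0 of 8 genes at 4 h, against 0.0165% of all tested genes, and 2 had an unadjusted p under 0.05, near the 25.7% of all tested genes. The other 5 genes had log2 fold changes between -0.13 (Erbb4) and 0.34 (Tgfa). Without the library transverse 30 min B, which is in neither group but shares the estimate of spread, Ereg and Errfi1 passed (adjusted p = 0.0499 and 0.0489).

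At 30 min the longitudinal libraries exceeded the transverse ones without overlap for Ereg, Nrg1 and Errfi1, 3 of 8 against 5.97% of all tested genes. The log2 fold change was 0.72 ± 0.25 for Ereg, 0.21 ± 0.08 for Nrg1 and 0.42 ± 0.14 for Errfi1, each with a limma adjusted p of 0.804. Limma called 0 of 8, against 0.0248% of all tested genes, and 3 had an unadjusted p under 0.05, as did 5.49% of all tested genes. Hbegf had 0.85 ± 0.75, and the other 4 genes lay between -0.15 (Erbb4) and 0.18 (Tgfa). In the interaction of axis and duration limma called 0 of 8 against 0.0248% of all tested genes and Nrg1 alone had an unadjusted p under 0.05 (log2 -0.27 ± 0.11, limma adjusted p = 0.833), as did 5.13% of all tested genes.

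Between the durations, Errfi1 was the gene of the family that passed the test. No duration is given for the control group, so neither duration has a control of its own. Duration of stretch and elapsed time cannot be told apart here. Longitudinal 4 h was lower than longitudinal 30 min by a log2 fold change of -0.60 ± 0.14 (limma adjusted p = 0.0307), and transverse 4 h was lower than transverse 30 min by -0.87 ± 0.14 (limma adjusted p = 0.0132). Errfi1 was the 1 of 8 genes called lower in each, against 3.07% of all tested genes for the longitudinal groups and 0.264% for the transverse groups. Hbegf had a log2 fold change of 4 h over 30 min of 0.77 ± 0.75 for longitudinal and 0.12 ± 0.75 for transverse stretch, and neither passed (limma adjusted p = 0.559 and 0.966). For transverse stretch the mean FPKM ran the other way, 39.4 at 4 h and 51.7 at 30 min, a ratio of 0.763, and the log2 value ran between -0.47 without transverse 30 min C and 1.02 without transverse 30 min B. Tgfa had 0.12 ± 0.17 for longitudinal and -0.04 ± 0.17 for transverse stretch, and Egfr 0.11 ± 0.17 and -0.07 ± 0.17, none of them called. At 4 h, 3 of 8 genes lay below longitudinal 30 min without overlap, Ereg, Nrg1 and Errfi1, against 17.7% of all tested genes, and 2 of 8 above, Erbb2 and Erbb4, against 11.0%. For transverse stretch Ereg and Errfi1, 2 of 8, lay below, against 7.73%.

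These Errfi1 calls were near the threshold. The longitudinal adjusted p was 0.0817, 0.0781 and 0.0542 without longitudinal 30 min A, B and C, and 0.107 and 0.0640 without longitudinal 4 h A and C. The transverse adjusted p was 0.0842 and 0.0518 without transverse 30 min A and B, and 0.0815 without transverse 4 h A. When no other group entered the fit, the adjusted p was 0.105 for longitudinal and 0.0902 for transverse stretch.

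Levels per length place the family in order within a group. In control the order was Hbegf at 19.9 FPKM, Erbb2 at 11.5, Errfi1 at 5.91, Tgfa at 2.74, Egfr at 2.65, Erbb4 at 2.15, Ereg at 1.22 and Nrg1 at 1.05 FPKM. The ranges of Hbegf and Erbb2 overlapped, as did those of Tgfa, Egfr and Erbb4, and those of Ereg and Nrg1. In longitudinal 30 min Errfi1, at 22.6 FPKM, stood above Erbb2, at 11.1 FPKM, and Ereg, at 9.59 FPKM, overlapped Erbb2.

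Genes upstream and downstream of the receptors were taken from lists of known roles, chosen with earlier results of these data known. Of 15 ERK feedback and target genes, all tested, none was called lower than control. Called higher were 7 in longitudinal 4 h, 0 in transverse 4 h, 7 in longitudinal 30 min and 4 in transverse 30 min. Of all tested genes, 10.3% were called higher in longitudinal 4 h and 0.0578% called either way in transverse 4 h. In longitudinal 30 min 0.388% were called higher, and in transverse 30 min 0.289%. The median log2 fold change of the 15 was 0.68, 0.25, 0.78 and 0.42 in these groups, beside medians of -0.01, 0.00, 0.01 and -0.01 over all genes tested. In transverse 4 h no gene of the list had an unadjusted p under 0.05, against 10.6% of all tested genes. The count depended on single libraries: in longitudinal 4 h it was 2 without control B, 4 without control C and 3 without longitudinal 4 h C, in longitudinal 30 min 4 without control B, and in transverse 30 min 2 without any 1 of control A, B or C or transverse 30 min A or B. The transverse 30 min count was also 2 with only those groups fitted and with the device letter as a block.

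Egr1, a transcription factor of the immediate-early response, had 21.9, 31.9 and 29.7 FPKM in longitudinal 4 h, 17.0, 20.1 and 22.7 FPKM in transverse 4 h, 229.4, 242.2 and 224.6 FPKM in longitudinal 30 min, 234.8, 153.9 and 201.1 FPKM in transverse 30 min, and 18.6, 17.2 and 14.9 FPKM in control. It was called higher in longitudinal 30 min (log2 3.71 ± 0.16, limma adjusted p = 5.83e-08), in transverse 30 min (3.45 ± 0.16, 1.42e-07) and in longitudinal 4 h (0.68 ± 0.16, 0.0160). Dusp6, a phosphatase that inactivates ERK, averaged 11.8 ± 2.08 FPKM in longitudinal 4 h, 8.23 ± 1.11 FPKM in transverse 4 h, 20.6 ± 2.46 FPKM in longitudinal 30 min, 14.0 ± 2.59 FPKM in transverse 30 min and 6.77 ± 1.23 FPKM in control. Its values were highest in longitudinal 30 min and nearest to control in transverse 4 h, and it was called higher in longitudinal 4 h (log2 0.72 ± 0.16, limma adjusted p = 0.0115), in longitudinal 30 min (1.48 ± 0.16, 0.000342) and in transverse 30 min (0.95 ± 0.16, 0.0206). Dusp5, a nuclear ERK phosphatase, averaged 8.63 ± 1.85, 5.81 ± 0.617, 10.9 ± 2.29 and 10.1 ± 1.23 FPKM in those 4 stretch groups against 4.56 ± 0.256 FPKM in control, and was called higher in longitudinal 4 h (log2 0.78 ± 0.15, limma adjusted p = 0.00745), in longitudinal 30 min (1.08 ± 0.15, 0.00291) and in transverse 30 min (0.99 ± 0.15, 0.00864). Myc, a transcription factor of growth, was called higher in longitudinal 4 h (log2 1.08 ± 0.21, limma adjusted p = 0.00803) and in longitudinal 30 min (1.35 ± 0.21, 0.00914).

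Of the same 15 genes, 4 were called lower at 4 h than at 30 min for longitudinal stretch, against 3.07% of all tested genes. They were Egr1, Spry2, Dusp6 and Spry4. For transverse stretch 1 gene, Egr1, was called lower, against 0.264%. The Egr1 log2 fold change of 4 h over 30 min was -3.03 ± 0.16 for longitudinal stretch (limma adjusted p = 6.81e-07) and -3.23 ± 0.16 for transverse stretch (limma adjusted p = 2.39e-07). Sprouty proteins, encoded by Spry2 and Spry4, limit receptor tyrosine kinase signalling. The longitudinal count fell to 1 with only those groups fitted and to 2 with the device letter as a block. It was 2 in the lowest of the 15 fits that left out 1 library, and the transverse count reached 2 in the highest, without longitudinal 4 h C.

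**Figure D3:**
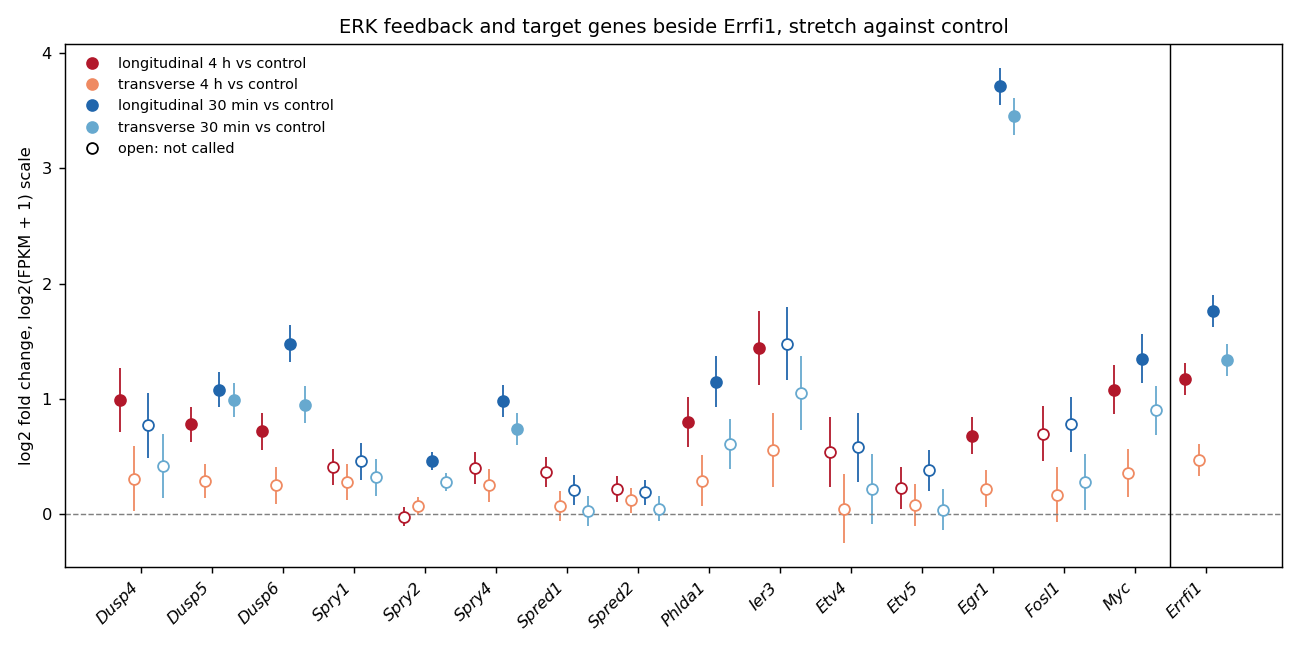
Log2 fold change over control, with its standard error, of 15 ERK feedback and target genes and of Errfi1, for the 4 stretch groups on the log2(FPKM + 1) scale. Filled points passed an adjusted p of 0.05, and Egr1 stands highest at 30 min, 3.71 in longitudinal and 3.45 in transverse stretch.

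The other lists held fewer calls, all in longitudinal 4 h among the comparisons with control. Of 12 genes for sheddases, rhomboid-type proteins and regulators of these, 1 was called higher and 1 lower there. That share was no higher than the 20.7% of all tested genes called either way. Rhbdf1, an inactive rhomboid that helps carry ADAM17 to the cell surface, averaged 22.7 ± 3.58 FPKM in longitudinal 4 h and 15.5 ± 0.965 FPKM in control (log2 0.51 ± 0.16, limma adjusted p = 0.0397). Bace1, a protease that cleaves the Nrg1 precursor in nerve, averaged 17.7 ± 1.89 FPKM in longitudinal 4 h and 23.2 ± 1.32 FPKM in control (log2 -0.37 ± 0.10, limma adjusted p = 0.0203). Over the fits that left out 1 library this count ran between 0 and 3, and it moved by over 1.5 times without control A, B or C, without transverse 4 h A, and without longitudinal 4 h A or C.

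Of 22 receptor-proximal signalling genes tested, 4 were called higher and 3 lower in longitudinal 4 h, with a median log2 fold change of 0.03, beside 20.7% of all tested genes called either way. Nras, a Ras protein, averaged 21.2 ± 0.605 FPKM there and 16.4 ± 0.879 FPKM in control (log2 0.35 ± 0.06, limma adjusted p = 0.00570). Gab1, a docking protein of receptor tyrosine kinases, averaged 19.1 ± 0.834 FPKM in longitudinal 4 h and 22.6 ± 0.521 FPKM in control (log2 -0.23 ± 0.05, limma adjusted p = 0.00845). The count was 4 at its lowest, without control C. Hras was not analysed here. Between 4 h and 30 min of longitudinal stretch Pik3ca was called higher (log2 0.36 ± 0.09, limma adjusted p = 0.0369) and Gab1 lower (-0.25 ± 0.05, 0.0179), and that count of 2 fell to 0 with only these groups fitted.

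Of 17 negative regulators of ERBB receptors tested, 1 was called in longitudinal 4 h, fewer than the 20.7% of all tested genes. It was Ubash3b, which averaged 10.1 ± 2.53 FPKM in longitudinal 4 h and 4.40 ± 1.03 FPKM in control (log2 1.03 ± 0.29, limma adjusted p = 0.0294). Ubash3b encodes a phosphatase also known as Sts-1. Over the fits that left out 1 library the count ran between 0 and 3, moving by over 1.5 times without control A, B or C, transverse 30 min B, or longitudinal 4 h A or C. Of the rest of the EGF family, Erbb3 was the only gene of 4 in the table to pass the filter of at least 1 FPKM in at least 3 libraries. Erbb3 averaged 3.31 ± 0.523 FPKM in longitudinal 4 h, 3.29 ± 0.256 FPKM in transverse 4 h, 2.75 ± 0.517 FPKM in longitudinal 30 min, 2.72 ± 0.262 FPKM in transverse 30 min and 3.02 ± 0.550 FPKM in control, and was not called in any comparison. Epgn, Nrg3 and Nrg4 were not analysed here.

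Within groups the libraries differed in a way that ran through most of the family. The pooled within-group SD on the log2(FPKM + 1) scale was 0.97 for Hbegf, larger than that of 99.3% of tested genes, 0.34 for Ereg and 0.18 for Errfi1. Hbegf lay 1.81 above its group mean in transverse 30 min B and 1.16 below it in transverse 30 min C. The deviations of Hbegf over the 15 libraries correlated with those of Tgfa (r = 0.93), Erbb2 (0.79) and Ereg (0.75), and inversely with those of Egfr (-0.79) and Erbb4 (-0.66), while Errfi1 stood apart (-0.09). These are descriptions over libraries that share a scaling and a group mean. Such values are common here: 14.9% of the other 12113 genes reached 0.75 with Hbegf and 18.5% reached -0.66 or below.

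A single component held 34.7% of the within-group variance of all genes tested. Its scores correlated with the deviations of Hbegf at 0.99, Tgfa at 0.93, Erbb2 at 0.84, Ereg at 0.79, Nrg1 at 0.37, Errfi1 at -0.03, Erbb4 at -0.68 and Egfr at -0.79. The component was drawn from unscaled deviations of these same genes, so a gene of wide spread such as Hbegf weighs more in it. No share of all genes with such values is given. The highest score was that of transverse 30 min B (0.58), and the lowest that of transverse 30 min C (-0.43). Transverse 30 min B also had the lowest relative depth (0.671), an estimate that rests on 7 genes. The summed smooth muscle and pericyte markers, carried by Acta2, Tagln and Cnn1, moved with Hbegf within groups (r = 0.94), as did the summed myocyte markers (0.92). The summed epicardial and mesothelial markers, carried by Krt18, also did (0.81). Of the smooth muscle and pericyte markers, Cnn1 varied most over all libraries, 19.7 to 298.8 FPKM, and Pdgfrb least, 32.2 to 39.8 FPKM. The correlation with Hbegf was 0.25 for the summed endothelial markers, -0.35 for macrophage and leukocyte markers and -0.63 for fibroblast markers. Their part in the family's values was not tested.

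**Figure D4:**
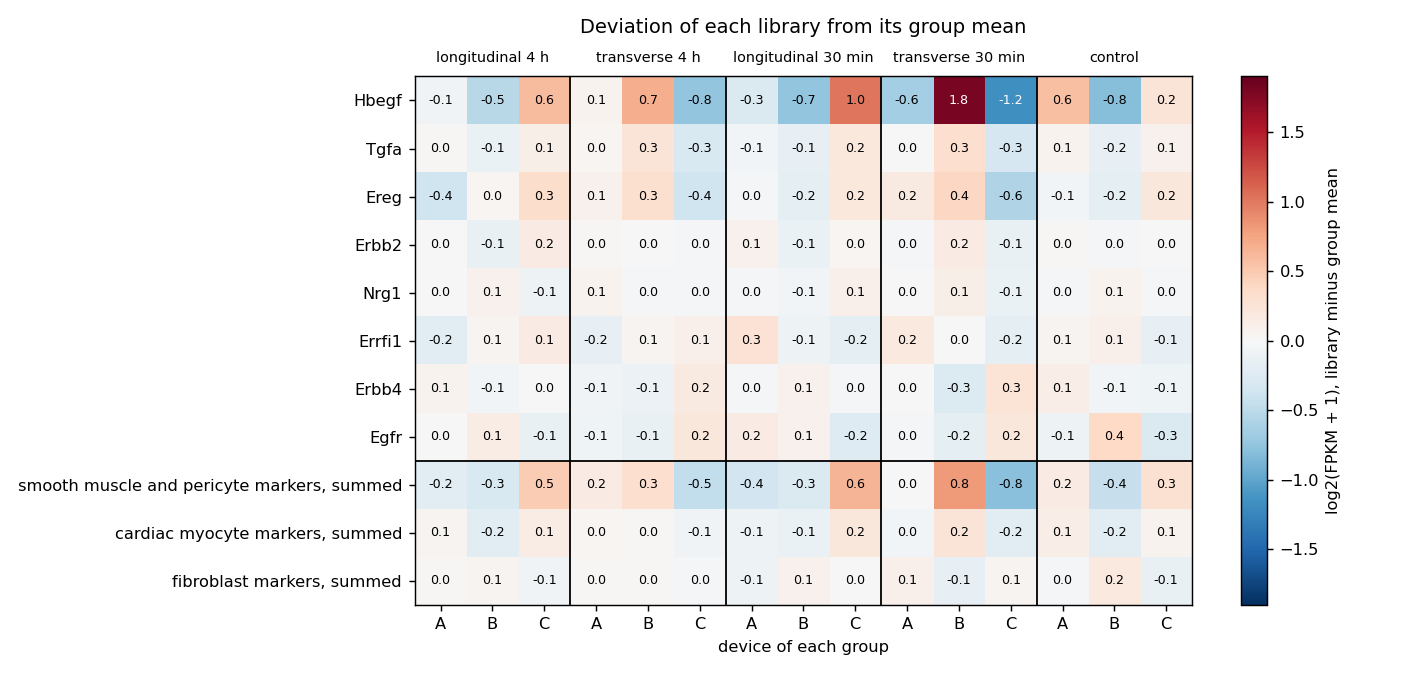
Deviation of each library from its group mean on the log2(FPKM + 1) scale, for the 8 genes and for 3 summed marker lists, with devices A, B and C of each group in columns. Transverse 30 min B is high and transverse 30 min C low for Hbegf (1.81 and -1.16), while no Errfi1 library lies further than 0.27 from its group mean.

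The tested genes most like each member over the 15 libraries, among those averaging at least 5 FPKM in a group, differed between members. Hbegf ran closest to Nuak1, an AMPK-related kinase (r = 0.997), Nppb, which encodes brain natriuretic peptide (0.986), and Synpo2l, an actin-associated protein of the Z-disc (0.985). Nppb averaged 2503 FPKM in longitudinal 4 h, 646.9 in transverse 4 h, 1548 in longitudinal 30 min, 1278 in transverse 30 min and 281.9 in control. Ereg ran closest to Ptgs2, the inducible cyclooxygenase (0.976), Dusp6 (0.965) and the transcription factor Klf6 (0.960). Errfi1 ran closest to Ch25h, cholesterol 25-hydroxylase (0.943), Dusp6 (0.938) and Dusp5 (0.936).

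Ptgs2 averaged 7.24 FPKM in longitudinal 4 h, 1.27 in transverse 4 h, 11.8 in longitudinal 30 min, 8.51 in transverse 30 min and 0.956 in control, an order by group close to that of Ereg. Ch25h averaged 15.5, 9.07, 42.1 and 27.3 FPKM in the same 4 stretch groups and 5.96 FPKM in control. The genes nearest Tgfa were Mrpl33 (0.979), Osbpl3 (0.976) and Fam129a (0.973). Nearest Nrg1 were Araf (0.847), 1200014J11Rik (0.842) and Gtf3c6 (0.820), and nearest Egfr were Dnm1 (0.918), Slit2 (0.833) and B3gnt9-ps (0.832). Nearest Erbb2 were Ppp2r2d (0.930), Spop (0.918) and Stk40 (0.912), and nearest Erbb4 were Fam178a (0.921), Phyhd1 (0.913) and Zfp62 (0.905). These likenesses are descriptions over 15 libraries that share groups and scaling.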

How the data were processed

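Poly(A) RNA of 15 libraries was prepared with the TruSeq kit, which does not mark the strand, per the labels' protocols. The submitters' processing notes name the build mm9, FastQC, TopHat 1.4.1 and Cufflinks 2.0.2, without roles. The authors deposited 1 table of FPKM values per gene and library, with their own log2 fold changes, p-values and q-values for each stretch group against control. The unit FPKM is read from Cufflinks in the processing notes and from the values, since the deposited header names samples only. What test gave the deposited p-values is not stated in those sources. The deposited q-values equal the Benjamini-Hochberg adjustment within 1% for all 13657 genes. The authors' group values lay within 2.98% of the mean of the libraries for the 8 genes. Some extreme deposited log2 fold values stand for ratios with 0 and were not used.

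Values were taken as log2(FPKM + 1), and genes with at least 1 FPKM in at least 3 libraries were tested (12114). All 15 libraries entered 1 limma 3.58.1 fit in R 4.3.3 with 5 group means, 10 residual degrees of freedom and the trend and robust options. P-values were two-sided. Benjamini-Hochberg adjustment ran over the genes tested within each of 9 comparisons, and genes were called under 0.05. The scripts were tested on simulated data. Starts in the table count from 0, since end minus start equalled the gene span in GRCm38 for 3165 of 12208 genes and plus 1 for 303, so 1 was added. FPKM gives no counts: relative depth came from the steps of low values (equal within 0.002 log2), shared by as few as 5 genes in a library, and no counting interval is given. No value column belonged to another series (0 columns), and 160 genes are at 0 in a library.

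Named genes were the members, up to 3 called genes of smallest p from each list and comparison, with some further calls of the lists, and the 3 most similar genes of each member. The values of 1 called gene of the receptor-proximal list are not reported here. Gene lists followed known roles, and the members and lists were chosen with earlier results of these data known. Alternatives were a pseudocount of 0.1, no filter, scaling to a common median, only the groups compared, the device letter as a block, no trend or robust option, and leaving out each library.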

Additional observations from a re-analysis of the deposited data

Results flagged for a closer look

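Errfi1 differed between durations of stretch, by the test of that difference. The log2 fold change of 4 h over 30 min was -0.60 for longitudinal stretch (limma adjusted p = 0.0307) and -0.87 for transverse stretch (limma adjusted p = 0.0132). In both, all 3 libraries at 4 h lay below all 3 at 30 min. Of the 15 fits that left out 1 library, the longitudinal call held in 10 and the transverse call in 12. With only the compared groups fitted, the limma adjusted p was 0.105 for longitudinal and 0.0902 for transverse stretch.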

How the results depend on the processing

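Another pseudocount, no filter, a common median and no trend or robust option left the number of called EGF family genes within 1.5 times its value in all 9 comparisons. With only the compared groups fitted, the transverse 30 min comparison with control had 1 call in place of 2, and 4 h against 30 min had 0 in place of 1 along each axis. Leaving out 1 library, the counts ran between 2 and 3 in longitudinal 4 h and 1 and 2 in transverse 30 min, each set against control. They ran between 0 and 2 for the axes compared at 4 h and for the durations compared along each axis. The other comparisons gave the same count in every such fit.

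Whether the device letters pair the libraries is not stated in the labels, and the deviations did not decide it. Deviations of same-letter libraries correlated between -0.50 and 0.51 (median -0.00, 9 of 30 pairs over 0.1), different letters had a median of 0.01, and 7 of 15 libraries correlated best with their own letter. With the letter as a replicate block, the transverse 30 min comparison with control had 1 call in place of 2, and longitudinal 4 h against 30 min had 0 in place of 1. Hbegf in longitudinal 4 h then had an adjusted p of 0.0713, and Ereg in transverse 30 min 0.0692.

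Among the members' fold changes in the 9 comparisons, signs turned in fits without 1 library and in none of the 6 other settings, for values that had not passed the test. The log2 fold changes then ran between -0.07 and 1.41 for Hbegf in transverse 30 min, -0.21 and 0.06 for Tgfa in transverse 4 h, -0.21 and 0.12 for Tgfa in transverse 30 min, -0.12 and 0.21 for Egfr in transverse 4 h, -0.10 and 0.22 for Egfr in longitudinal 30 min, and -0.06 and 0.27 for Egfr in transverse 30 min. They ran between -0.09 and 0.01 for Erbb2 in longitudinal 30 min, -0.11 and 0.04 for Erbb2 in transverse 30 min, -0.02 and 0.08 for Erbb4 in longitudinal 4 h, and -0.17 and 0.09 for Erbb4 in transverse 30 min, all against control. For longitudinal against transverse at 30 min they ran between -0.13 and 0.07 for Egfr and -0.09 and 0.06 for Erbb2. For 4 h against 30 min they ran between -0.01 and 0.19 for Egfr along the longitudinal axis and, along the transverse axis, between -0.47 and 1.02 for Hbegf, -0.20 and 0.12 for Tgfa, -0.01 and 0.10 for Nrg1, and -0.18 and 0.04 for Egfr. In the interaction they ran between -0.25 and 1.24 for Hbegf and -0.12 and 0.15 for Erbb4. The cause was not tested.

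Over all genes, the 2503 called in longitudinal 4 h became 1661 with the block and 792 to 3244 without 1 library. The 603 for longitudinal 4 h against 30 min became 20 with only those groups, 207 with the block and 65 to 932 without 1 library, and the 41 for transverse became 27 with the block and 21 to 44 without 1 library. The 7 in transverse 4 h became 16 with only those groups. Longitudinal against transverse gave 2 at 4 h (8 with only those groups, 1 with a pseudocount of 0.1, 2 to 173 without 1 library) and 3 at 30 min (8 with only those groups, 5 without the filter).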

Other observations

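Nrg2, another neuregulin, fell under the filter and was chosen here after its values were seen. It had 0.0765, 0.142 and 0.0860 FPKM in longitudinal 4 h, 0.117, 0.105 and 0.153 FPKM in transverse 4 h, 0.331, 0.220 and 0.201 FPKM in longitudinal 30 min, 0.301, 0.162 and 0.329 FPKM in transverse 30 min, and 0.285, 0.286 and 0.272 FPKM in control. All libraries of both 4 h groups lay below all control libraries, at levels where few reads stand behind each value. Of all tested genes, 21.5% lay below control in this way in longitudinal 4 h, and no such share is given for transverse 4 h. In the fit of all 13657 genes without the filter, the log2 fold change over control was -0.22 ± 0.06 in longitudinal 4 h (limma adjusted p = 0.0244) and -0.19 ± 0.06 in transverse 4 h (limma adjusted p = 0.334).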
